A study of Mus musculus with 10 samples.

Results

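A set of 10 enzyme genes of glucose breakdown was followed through mouse spermatogenesis: Hk1, Gapdh, Gapdhs, Pgk1, Pgk2, Pgam1, Pgam2, Ldha, Ldhb and Ldhc. They were picked by name, and all 10 had an entry among the 28125 genes of the single-cell RNA-seq (scRNA-seq) matrix and the 30670 genes of the single-cell ATAC-seq (scATAC-seq) matrix. scATAC-seq counts the fragments that a transposase cuts from open chromatin, so a higher value means more accessible DNA at the gene.

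Glycolysis turns glucose into pyruvate. Hexokinase (Hk1) traps glucose by adding a phosphate, glyceraldehyde-3-phosphate dehydrogenase (Gapdh, Gapdhs) makes the first NADH, phosphoglycerate kinase (Pgk1, Pgk2) makes ATP, phosphoglycerate mutase (Pgam1, Pgam2) moves the phosphate, and lactate dehydrogenase (Ldha, Ldhb, Ldhc) interconverts pyruvate and lactate. Sertoli cells, the nurse cells of the tubule, pass lactate to spermatocytes, whereas sperm rely on glycolysis along the tail for motility. Male germ cells use their own isozymes at several steps. Pgk2 is an autosomal retrogene copied from the X-linked Pgk1, Gapdhs is the sperm form of Gapdh, Ldhc arose by duplication from its neighbour Ldha, and Pgam2 is shared with skeletal muscle. NF-Y, the factor studied here, is a trimer of NFYA, NFYB and NFYC that binds the sequence CCAAT.

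Nuclei came from testes of wild-type C57BL/6J mice at 11, 17 and 25 days post partum (dpp). Adult testes were taken at the age of 8 weeks from mice with genotypes called Cre/+ and Nfya-CKO. Both 8-week-old groups carried Stra8-Cre, which recombines in germ cells from the spermatogonial stage on. The Nfya-CKO mice additionally had loxP-flanked Nfya alleles, so their somatic cells retained the gene. There was 1 scRNA-seq and 1 scATAC-seq library for each of the 5 conditions, 5 per assay, and the deposited matrices pool cells of all libraries into 13 populations. Hence each value below is a single number without a replicate, no spread or test can be given, and the order of neighbouring values was not tested.

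Of 45250 cells in the scRNA-seq table, 6273, 3746 and 18039 were from the 11, 17 and 25 dpp libraries, 11991 from Cre/+ and 5152 from Nfya-CKO, with median UMI (unique molecular identifier) counts of 7603, 5540, 2653, 2877 and 1446.5. The Cre/+ and Nfya-CKO libraries shared 3813 cell barcodes, which were 31.8% of the former and 74.0% of the latter. Between pairs of wild-type libraries 621 to 853 barcodes were shared, 3.44% to 22.8% of a library, and between any other pair 0 to 19. Barcodes shared between wild-type libraries were not counted by population. Cells whose barcode occurred in both 8-week-old libraries made up 48.3% of differentiating spermatogonia, 59.3% of elongating spermatids, 67.1% of other somatic cells and 35.6% of the Nfya-CKO spermatogonia, but 4.49% of undifferentiated spermatogonia, 22.0% of middle and late pachytene spermatocytes and 8.33% of round spermatids. As the matrices are pooled, values without these cells could not be computed. Nfya RNA was 0.456 per 10000 UMIs in undifferentiated spermatogonia. It was 1.11 in the spermatogonia that the Nfya-CKO library contributed, so its total RNA did not check the label. The deletion removes only part of the gene.

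Age and stage cannot be told apart for most populations. Cells from the 11 dpp library were 50% of undifferentiated spermatogonia and 87.8% of Sertoli cells, those from 25 dpp were 93.5% of leptotene to early pachytene and 70.7% of middle and late pachytene spermatocytes, and those from Cre/+ were 84.5% of differentiating spermatogonia, 77.0% of round spermatids and 99.6% of elongating spermatids. Of the cells called other somatic, 78.8% were from the library labelled Nfya-CKO.

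The population names were compared with marker RNA. The summed level of 4 markers of undifferentiated spermatogonia was highest in the population of that name, at 15.4 per 10000, followed by 7.72 in the Nfya-CKO spermatogonia. The sum of 3 pachytene markers peaked in middle and late pachytene (13.2), that of 3 round spermatid markers in round spermatids (9.97) and that of the protamine and transition protein genes Prm1, Prm2, Tnp1 and Tnp2 in elongating spermatids (118). The sum of 3 leptotene and zygotene markers was highest in leptotene to early pachytene (30.0), and early leptotene to zygotene (19.9) did not stand apart from middle and late pachytene (20.9). Single markers could differ from their sum: Id4 of the undifferentiated list was higher in middle and late pachytene (1.57 against 0.682), Ovol2 of the pachytene list in diplotene (0.504 against 0.291) and Tssk1 of the round spermatid list in elongating spermatids (0.760 against 0.595). Some names were less clear-cut. Differentiating spermatogonia had 5.19 for Kit, Dmrtb1 and Stra8, below the 7.97 of preleptotene cells, and 9.88 for the 4 protamine and transition protein genes, against 0.0149 in preleptotene, where Prm2 was at 0. Elongating spermatids carried 35.9 for 4 Sertoli cell markers, where Sertoli cells themselves had 55.1 and other somatic cells 98.5. Most of this was Clu, at 31.3 in elongating spermatids, 34.1 in Sertoli cells and 91.5 in other somatic cells, and Sox9 was 1.90, 10.7 and 3.54. The Nfya-CKO spermatogonia carried 24.4 for these and 48.4 for 4 Leydig cell markers, against 3.66 and 0.172 in undifferentiated spermatogonia.

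Promoter sequence was inspected first, because the study concerns a CCAAT-binding factor. The 250 bases before the RefSeq start site of 5 members are given below on the gene's strand, 5′ to 3′ (RefSeq, GRCm38.p6). Capitals mark CCAAT in Pgk1, Pgk2 and Ldhb and TGACG, the core of the cyclic AMP response element, in Ldhc. Gapdhs had neither. They show the X-linked parent and its retrogene, the lactate dehydrogenases of Sertoli and germ cells, and the sperm form of Gapdh.

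Pgk1: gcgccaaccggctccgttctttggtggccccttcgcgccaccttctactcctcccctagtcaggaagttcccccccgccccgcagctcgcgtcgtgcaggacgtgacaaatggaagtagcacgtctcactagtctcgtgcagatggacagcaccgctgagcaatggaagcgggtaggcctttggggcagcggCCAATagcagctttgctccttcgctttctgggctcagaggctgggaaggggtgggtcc
Pgk2: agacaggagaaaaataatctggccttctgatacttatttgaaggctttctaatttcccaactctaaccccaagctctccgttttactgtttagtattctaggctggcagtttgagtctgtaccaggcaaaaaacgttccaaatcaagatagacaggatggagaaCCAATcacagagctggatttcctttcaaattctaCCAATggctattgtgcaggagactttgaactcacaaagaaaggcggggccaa
Ldhb: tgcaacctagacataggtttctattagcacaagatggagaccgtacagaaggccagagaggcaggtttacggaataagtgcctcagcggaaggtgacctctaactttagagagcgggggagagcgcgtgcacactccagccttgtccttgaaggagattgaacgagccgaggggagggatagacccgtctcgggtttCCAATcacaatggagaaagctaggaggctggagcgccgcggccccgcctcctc
Ldhc: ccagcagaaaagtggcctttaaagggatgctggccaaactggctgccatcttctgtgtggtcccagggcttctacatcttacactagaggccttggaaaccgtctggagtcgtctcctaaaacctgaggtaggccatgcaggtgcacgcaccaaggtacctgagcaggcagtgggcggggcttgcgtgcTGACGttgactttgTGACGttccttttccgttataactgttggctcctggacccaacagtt
Gapdhs: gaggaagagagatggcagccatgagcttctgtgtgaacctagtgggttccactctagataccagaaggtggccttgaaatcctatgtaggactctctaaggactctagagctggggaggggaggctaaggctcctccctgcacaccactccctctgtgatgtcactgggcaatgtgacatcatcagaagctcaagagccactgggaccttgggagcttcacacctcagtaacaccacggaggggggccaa

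These windows are chrX:106186850-106187099 (plus strand) for Pgk1, chr17:40208610-40208859 (minus) for Pgk2, chr6:142507958-142508207 (minus) for Ldhb, chr7:46861013-46861262 (plus) for Ldhc and chr7:30743682-30743931 (minus) for Gapdhs. The first base of CCAAT lay at -58 in Pgk1, at -86 and -52 in Pgk2 and at -53 in Ldhb, counted back from the start site. Pgk2 thus had a CCAAT at nearly the distance of its parent gene and another one upstream. Pgam2 held one at -246. CCAAT on either strand was found in 4 of 14 promoter windows of the members (4 of the 10 members, some with 2 start sites), and in 33.8% of 32851 RefSeq promoter windows. The Ldhc window held GGGCGG at -78 and TGACG at -61 and -47, and 3 member windows had each of these motifs, against 32.7% and 17.8% of all windows. TATAAA was found in 0 member windows and 12.4% of all, AACTG in 9 and 39.1%. In 2 RefSeq start sites of Gapdhs none of the 5 motifs was found, which says only that these letters are not in these windows.

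Hk1 (chr10:62268855-62379920), the hexokinase of the mitochondrial surface and, in a germ cell form, of the sperm tail, was, among germ cells, lowest in early meiosis and highest in spermatids. Its RNA was 0.612 per 10000 in undifferentiated spermatogonia, 0.769 in differentiating spermatogonia, 0.223 in preleptotene, 0.232 in early leptotene to zygotene, 0.312 in leptotene to early pachytene, 0.503 in middle and late pachytene, 1.18 in diplotene, 3.12 in round spermatids and 6.21 in elongating spermatids. From undifferentiated spermatogonia this was 4.52-fold higher in round and 8.85-fold higher in elongating spermatids, folds being of the value plus 0.1. Sertoli cells had 0.103. The deposited values do not separate the somatic and germ cell transcripts of Hk1.

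From undifferentiated spermatogonia to round spermatids Gapdh and Gapdhs changed in opposite directions, although both were higher again in elongating spermatids. Gapdh (chr6:125161852-125166467) was 1.55 in undifferentiated spermatogonia, 0.620 in differentiating spermatogonia, 1.68 in preleptotene, 1.04 in early leptotene to zygotene, 0.307 in leptotene to early pachytene, 0.157 in middle and late pachytene, 0.189 in diplotene, 0.138 in round spermatids and 0.292 in elongating spermatids. It was highest in Sertoli cells (2.37). In the same 9 germ cell populations Gapdhs (chr7:30729779-30744791), which is anchored to the fibrous sheath of the sperm tail, was 0.0825, 1.21, 0.00415, 0.0957, 0.210, 0.419, 1.55, 4.44 and 8.00. Gapdh fell to 0.144 of its spermatogonial value in round spermatids, while Gapdhs was 24.9-fold higher there and 44.4-fold higher in elongating spermatids. These sizes depend on the 0.1 added and on the reference. With 0.01 added the log2 changes of Gapdhs were 5.59 and 6.44 (4.64 and 5.47 with 0.1), and that of Gapdh was -3.40 (-2.79). From differentiating spermatogonia Gapdhs had 1.80 and 2.63 and Gapdh -1.60. The levels of both genes cannot be set side by side as deposited, because most windows of the Gapdh mRNA have a copy elsewhere in the genome and reads with several places were dropped, as detailed with the isozyme shares.

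Of the kinases, Pgk2 (chr17:40207018-40208609) was 0.0566 in undifferentiated spermatogonia, 0.803 in differentiating spermatogonia, 0.00300 in preleptotene, 0.0360 in early leptotene to zygotene, 0.161 in leptotene to early pachytene, 0.357 in middle and late pachytene, 1.15 in diplotene, 1.98 in round spermatids and 5.51 in elongating spermatids. Relative to undifferentiated spermatogonia it was 13.3-fold higher in round and 35.8-fold higher in elongating spermatids. The size depends on the 0.1 added, which exceeds the spermatogonial value. With 0.01 added the log2 changes were 4.90 and 6.37 (3.73 and 5.16 with 0.1), and from differentiating spermatogonia 1.21 and 2.63. Pgk1 (chrX:106187100-106203699) had low values in every population, between 0.0155 and 0.0394 in germ cells and 0.0614 in Sertoli cells, and it was listed at 0 in the 99 unknown cells, where a single UMI would be worth 0.0213. Its mean was below the 0.05 required for counting, so no fold is called for it.

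Of the mutases, Pgam2 (chr11:5801637-5803796) was 0.0721 in undifferentiated spermatogonia, 0.457 in differentiating spermatogonia, 0.0105 in preleptotene, 0.104 in early leptotene to zygotene, 0.381 in leptotene to early pachytene, 0.860 in middle and late pachytene, 1.06 in diplotene, 0.890 in round spermatids and 2.01 in elongating spermatids. It was 5.58-fold higher in middle and late pachytene and 12.2-fold higher in elongating spermatids than in undifferentiated spermatogonia. With 0.01 added the log2 changes were 3.41 and 4.62 (2.48 and 3.61 with 0.1), and from differentiating spermatogonia 0.78 and 1.92. The widely expressed Pgam1 (chr19:41911871-41918665) stayed between 0.00713 and 0.0379 in germ cells and, like Pgk1, was below the limit for counting.

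Of the lactate dehydrogenases, Ldhc (chr7:46861263-46878147) was 0.579 in undifferentiated spermatogonia, 3.44 in differentiating spermatogonia, 0.113 in preleptotene, 1.80 in early leptotene to zygotene, 5.40 in leptotene to early pachytene, 11.7 in middle and late pachytene, 8.41 in diplotene, 7.07 in round spermatids and 10.1 in elongating spermatids. Ldha (chr7:46842274-46855627), 5635 bases away, ran a similar course at a lower level, with 0.182, 0.586, 0.0426, 0.278, 0.675, 1.17, 1.05, 0.779 and 1.80 in the same order. Ldhb (chr6:142490249-142507957), the form that favours lactate oxidation, was 4.29 in Sertoli cells and 4.43 in other somatic cells, and lay between 0.128 and 0.705 in the first 8 germ cell populations. In elongating spermatids Ldhb was 1.74, 5.11-fold above undifferentiated spermatogonia, and in that population the Sertoli cell marker sum, mostly Clu, was also raised, as given above. So were the sum of 4 Leydig cell markers, at 5.56 against 0.172 (all 4 above 0), and that of 3 macrophage markers, at 0.792 against 0.0603. Among the first 8 germ cell populations Ldhb was highest in early leptotene to zygotene, where the Sertoli cell marker sum was 11.3, of which 8.20 was Clu and 1.59 Sox9. Whether somatic RNA contributed to these values was not tested. Per kilobase of coding sequence, middle and late pachytene cells had 11.7 of Ldhc, 1.08 of Ldha and 0.125 of Ldhb, whereas Sertoli cells had 0.0563 of Ldhc and 4.18 of Ldhb.

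**Figure D1:**
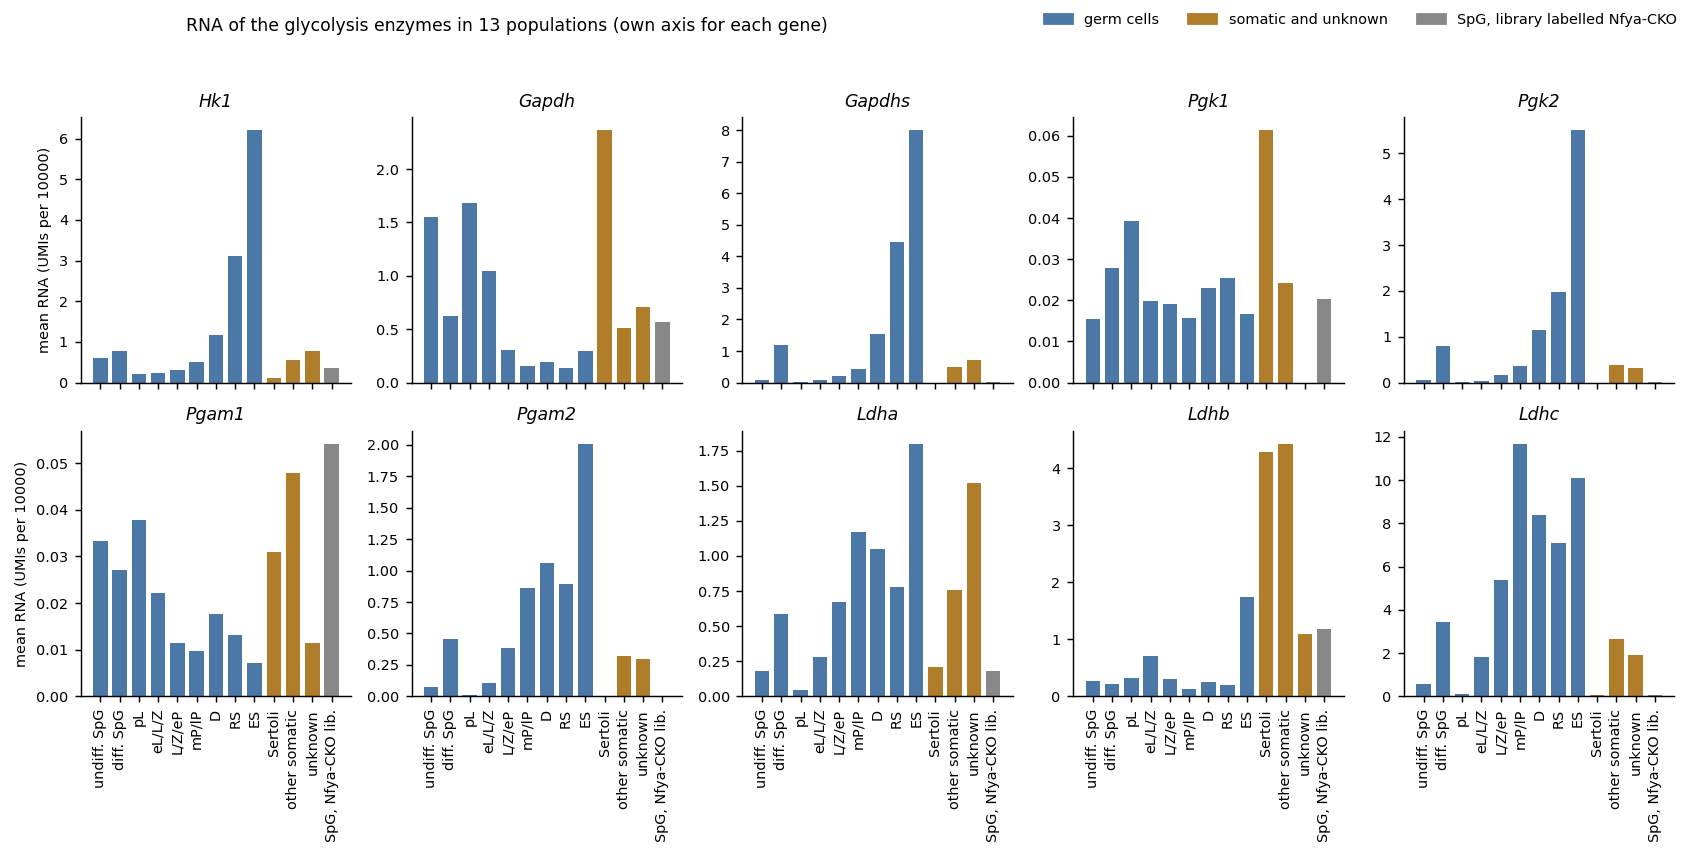
RNA level of the 10 enzymes (UMIs per 10000, own linear axis for each gene) in the 13 populations, each bar being 1 pooled value. Gapdhs, Pgk2, Pgam2 and Hk1 are tallest in elongating spermatids and Ldhc in middle and late pachytene (11.7), while Gapdh is tallest in Sertoli cells (2.37).

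Sertoli cells held almost none of the germ cell isozymes. Pgk2 was 0.000808 there, Gapdhs 0.00122, Pgam2 0.00199 and Ldhc 0.0562, where 1 UMI in all Sertoli cells pooled would be worth 0.000281. From Sertoli cells to round spermatids Ldhc was 45.9-fold, Gapdhs 44.8-fold, Pgk2 20.7-fold, Hk1 15.8-fold, Pgam2 9.71-fold and Ldha 2.85-fold higher, and Ldhb and Gapdh fell to 0.0672 and 0.0966 of the Sertoli value. For Ldhc, Gapdhs, Pgk2, Hk1 and Pgam2 the size and order depend on the 0.1 added, since their Sertoli values are smaller or about as small. With 0.01 added the log2 changes were 8.63 for Gapdhs, 7.53 for Pgk2, 6.74 for Ldhc, 6.23 for Pgam2 and 4.79 for Hk1. That of Gapdh, whose round spermatid value is near 0.1, went from -3.37 to -4.00. The population called other somatic, by contrast, had 2.67 of Ldhc and 0.376 of Pgk2, and its 4 protamine and transition protein genes summed to 4.77, with all 4 above 0. The 99 unknown cells were similar, with 1.93 of Ldhc and 6.71 for the marker sum. Across the 13 populations the summed level of Pgk2, Ldhc, Gapdhs and Pgam2 ran from 0.0603 in Sertoli cells to 25.6 in elongating spermatids. In undifferentiated and differentiating spermatogonia it was 0.790 and 5.90, but 0.131 in preleptotene, the next stage. The spermatid marker sum had the same dip, from 0.511 and 9.88 to 0.0149. The part of spermatid RNA in the germ isozyme values of spermatogonia and of somatic cells was not tested.

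**Figure D2:**
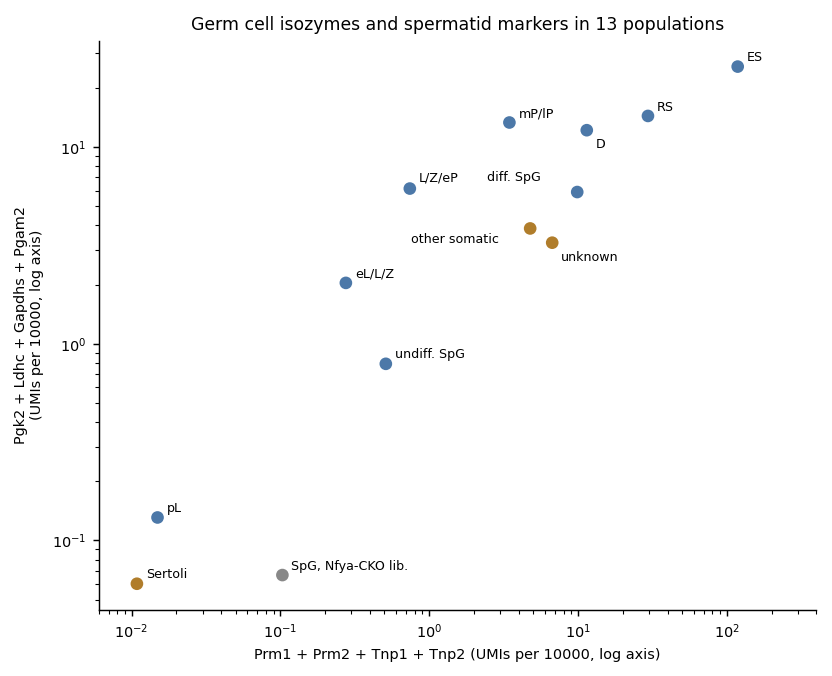
Summed RNA of the 4 germ cell isozymes (vertical, UMIs per 10000, log axis) against summed RNA of Prm1, Prm2, Tnp1 and Tnp2 (horizontal, same unit, log axis), 1 point for each of the 13 pooled populations. Differentiating spermatogonia (5.90 and 9.88) lie near diplotene (12.2 and 11.4) and other somatic cells (3.86 and 4.77), far from preleptotene (0.131 and 0.0149).

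Changes of at least 2-fold were counted over 15250 genes with a mean of 0.05 or more, 8 of them members. From undifferentiated spermatogonia to middle and late pachytene, 5 members were higher (Pgk2, Ldha, Ldhc, Gapdhs and Pgam2), where 13.9% of all genes were, and 1 was lower (Gapdh), where 20.8% were. In round spermatids 6 were higher, now with Hk1, against 22.4% of genes, and Gapdh was again the 1 member lower, against 26.7%. In elongating spermatids 7 were higher, now with Ldhb, against 21.2%, and 1, Gapdh, was lower, against 19% of genes. The median log2 change of the 8 members was 1.53, 2.35 and 3.38 in these comparisons, and that of all genes -0.14, -0.27 and -0.05. From Sertoli cells to round spermatids 6 members were higher (27.6% of genes) and 2 lower (22.7%). Scaling by the median ratio instead of the total shifted the median gene of the round spermatid comparison by 0.46 on the log2 scale and turned Ldhb there from -0.29 to 0.13. The other members counted as changed kept their direction.

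Most of the 6 members that were higher in round spermatids had their highest germ cell level in elongating spermatids, and they differed in the level reached before. Ldhc, with 11.7 in middle and late pachytene and 10.1 in elongating spermatids, was the exception, but scaled by the median ratio its log2 change was 4.24 and 4.25 in these populations, so no order of the 2 can be given. Ldhc reached 46.2% of its highest germ cell level already in leptotene to early pachytene and 100% in middle and late pachytene, and Ldha had 37.5% and 65.3%. Pgam2 was intermediate, at 19.0% and 42.8%. Pgk2 (2.93% and 6.49%), Gapdhs (2.62% and 5.24%) and Hk1 (5.03% and 8.10%) were still far below their highest level. These levels are per 10000 UMIs. Cells had a median of 6969 UMIs in middle and late pachytene, 2132 in round and 2562 in elongating spermatids, and levels per cell were not computed. In round spermatids Gapdhs stood at 55.5%, Hk1 at 50.2% and Pgk2 at 36%. Counted from preleptotene, the stage with the least spermatid marker RNA, the log2 change in middle and late pachytene was 5.79 for Ldhc, 3.16 for Ldha, 3.12 for Pgam2, 2.32 for Gapdhs, 2.15 for Pgk2 and 0.90 for Hk1. Counted instead from differentiating spermatogonia, Pgk2 and Gapdhs were lower in middle and late pachytene, at -0.98 and -1.33.

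Accessibility at the germ cell isozyme genes was also higher in spermatids than in undifferentiated spermatogonia. Values are scaled so that all genes of a population sum to 1000000. At Pgk2 they were 7.32 in undifferentiated spermatogonia, 7.0 in differentiating spermatogonia, 2.28 in preleptotene, 2.63 in early leptotene to zygotene, 6.15 in leptotene to early pachytene, 12.9 in middle and late pachytene, 18.4 in diplotene, 25.7 in round and 26.1 in elongating spermatids. At Ldhc the same populations had 12.1, 13.9, 8.08, 8.74, 12.3, 25.7, 37.5, 37.7 and 32.4, so that accessibility in undifferentiated spermatogonia was 32% of its maximum and RNA 4.96%. Gapdhs rose from 3.61 in undifferentiated spermatogonia and 2.90 in preleptotene to 10.7 in middle and late pachytene and 37.4 in round spermatids. Hk1 went from 2.48 to 4.89 and 32.3. Both were lower again in elongating spermatids, at 18.2 and 8.60, while their RNA was highest there. Only 124 nuclei make up that scATAC-seq population. Pgam2 had 13.4, 14.0, 22.1 and 29.7 in undifferentiated spermatogonia, middle and late pachytene, round and elongating spermatids.

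**Figure D3:**
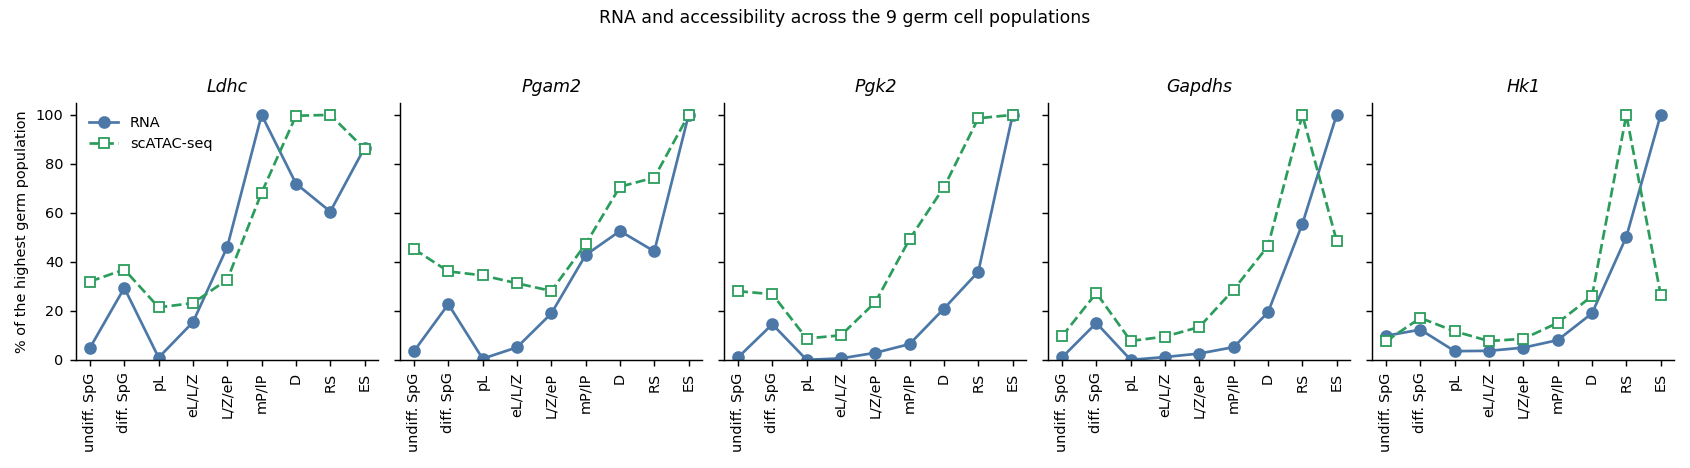
RNA (filled circles) and scATAC-seq value (open squares) of Ldhc, Pgam2, Pgk2, Gapdhs and Hk1, each as percent of its highest value among the 9 germ cell populations; each point is 1 pooled value. In middle and late pachytene Pgk2 has 6.49% of its highest RNA and 49.3% of its highest accessibility, whereas Ldhc has 100% and 68.2%. Mitochondrial genes are in the scATAC-seq total.

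The accessibility of Pgk2 thus stood at 49.3% of its maximum in middle and late pachytene, where its RNA was at 6.49%, and that of Gapdhs at 28.7% against 5.24%. Mitochondrial genes made up 60.3% of the summed scATAC-seq values there, 40.2% in round and 43.7% in elongating spermatids. Without them the percents in middle and late pachytene were 70.0% for Pgk2, 43.2% for Gapdhs, 88.7% for Ldhc, 67.1% for Pgam2 and 22.8% for Hk1, and RNA of Pgk2, Gapdhs and Hk1 was still the lower of the pair. Among the widely expressed genes, Gapdh was 52.1 in undifferentiated spermatogonia, 21.8 in middle and late pachytene and 26.5 in round spermatids, and Ldhb 27.1, 4.47 and 7.38, with 49.0 in Sertoli cells. Pgk1 and Pgam1 were accessible although little RNA was counted, at 10.9 to 31 and 22.2 to 51.8 in germ cells. Across the 9 germ cell populations Pearson's r of RNA and accessibility was 0.93 for Gapdhs, 0.90 for Pgk2, 0.87 for Gapdh and 0.81 for Pgam1. It was 0.79 for Ldhc, 0.77 for Hk1, 0.75 for Pgam2, 0.54 for Pgk1, 0.32 for Ldha and -0.11 for Ldhb. The choice of populations matters, since over all 13 Ldhb had 0.62 and Pgam1 0.27. These points share libraries and cells, and r is given as a description.

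By the same 2-fold rule on the value plus 1, Ldhc and Gapdhs were the 2 members more accessible in middle and late pachytene than in undifferentiated spermatogonia (2.47% of 30657 genes), and Ldhb and Gapdh the 2 less accessible (22.3%). Without the mitochondrial genes in the total, the median gene shifted by 0.52 on the log2 scale and the counts became 4 (with Pgk2 and Hk1; 8.75% of genes) and 1 (Ldhb; 13.1%). In that scaling the sign at Pgk1, Ldha and Pgam1 turned positive. In round spermatids Pgk2, Ldhc, Gapdhs and Hk1 were higher (4 members; 17.1% of genes) and Ldhb was lower (1; 10.7%). Without mitochondrial genes Ldha was also past 2-fold, for 5 higher (20.8%) and 1 lower (11.5%). In elongating spermatids 6 were higher (14.5%) and Pgk1 and Ldhb lower (2; 18.4%). From Sertoli cells to round spermatids 6 members were higher, where 30.7% of genes were, and Ldhb was the 1 lower (5.55%). Without mitochondrial genes these were 6 (30.6%) and, with Gapdh, 2 (8.82%).

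The share of the germ cell isozyme in the deposited RNA of its family was higher in round spermatids than in undifferentiated spermatogonia, preleptotene or Sertoli cells. Pgk2 was 78.5% of the PGK RNA in undifferentiated spermatogonia, 7.07% in preleptotene, 95.8% in middle and late pachytene and 98.7% in round spermatids. Gapdhs was 5.05%, 0.246%, 72.7% and 97% of the GAPDH RNA in the same 4 populations. Ldhc was 56.7%, 23.5%, 90% and 87.9% of the LDH RNA, and Pgam2 was 68.4%, 21.6%, 98.9% and 98.6% of the PGAM RNA. In Sertoli cells the 4 shares were 1.30%, 0.0514%, 1.24% and 6.04%. Other populations before or outside meiosis were not low throughout. In the same order, differentiating spermatogonia had 96.6%, 66.1%, 81.1% and 94.4%, and other somatic cells 94.0%, 48.4%, 34.0% and 87.0%. The unknown cells had 100%, 50.6%, 42.5% and 96.3%.

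Counting treats the members of a family unequally, since only reads with a single place in the genome were kept and read 2 was 71 bases long. Of the 71-base windows in the mRNA, 93.9% for Gapdh (1130 of 1204), 91.6% for Pgk1 (1608 of 1755) and 89.3% for Pgam1 (1574 of 1762) had an exact copy elsewhere in the mouse genome, some Gapdh windows as many as 50 copies. Ldhb had 20.9% and Ldha 9.22%. The germ cell isozymes Pgk2, Ldhc, Gapdhs and Pgam2 had 0%, and so had Hk1. At the 3′ end the imbalance was larger for Gapdh and Pgam1, with 100% and 99% of the last 500 windows copied, against 86.4% for Pgk1. Whether intronic reads of these nuclei were counted, and how evenly reads cover the mRNA, was not tested. Levels of Gapdh, Pgk1 and Pgam1 are therefore not comparable with those of their germ cell counterparts as deposited. Comparing each gene between populations assumes that the countable part of its RNA stays the same, which was not tested.

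**Figure D4:**
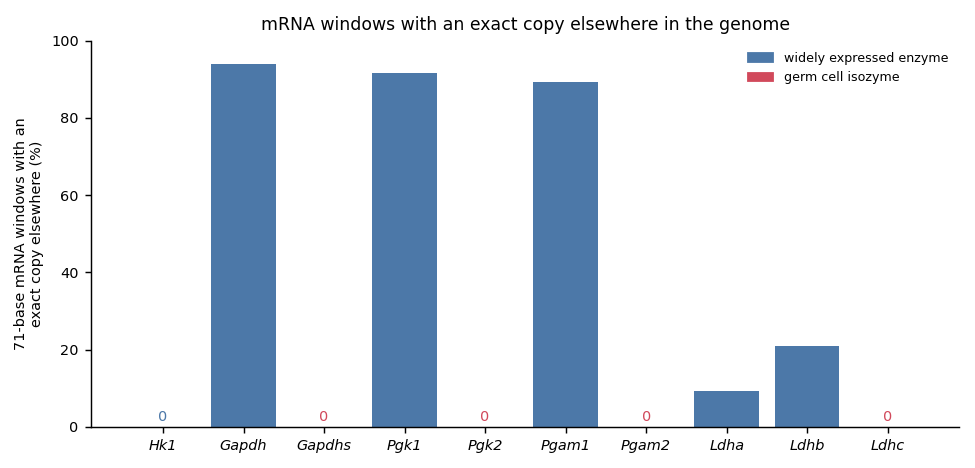
Percent of 71-base windows in the mRNA of each member that have an exact copy elsewhere in the GRCm38 genome. Gapdh (93.9%), Pgk1 (91.6%) and Pgam1 (89.3%) stand apart from the germ cell isozymes, which are at 0.

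Dividing each value by the number of windows without a copy, which assumes even coverage of the mRNA, lowered the germ cell share in 3 families. Gapdhs was then 0.283% of GAPDH in undifferentiated spermatogonia, 12.4% in middle and late pachytene, 63.1% in round and 59.3% in elongating spermatids. Pgk2 was 26.1%, 68.6%, 88.3% and 96.9% of PGK, and Pgam2 32.8%, 95.2%, 93.9% and 98.4% of PGAM. Ldhc hardly moved, with 53.4%, 91.0%, 88.6% and 72.4% of LDH. In preleptotene the corrected shares were 0.729% for PGK, 0.0132% for GAPDH, 5.83% for PGAM and 19.2% for LDH. Over all 13 populations the correction moved 25 of 52 shares by more than 1.5-fold, with 13 of 13 in GAPDH, 7 in PGK, 5 in PGAM and 0 in LDH. In all 4 families the share in round spermatids remained above that in undifferentiated spermatogonia and in Sertoli cells.

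**Figure D5:**
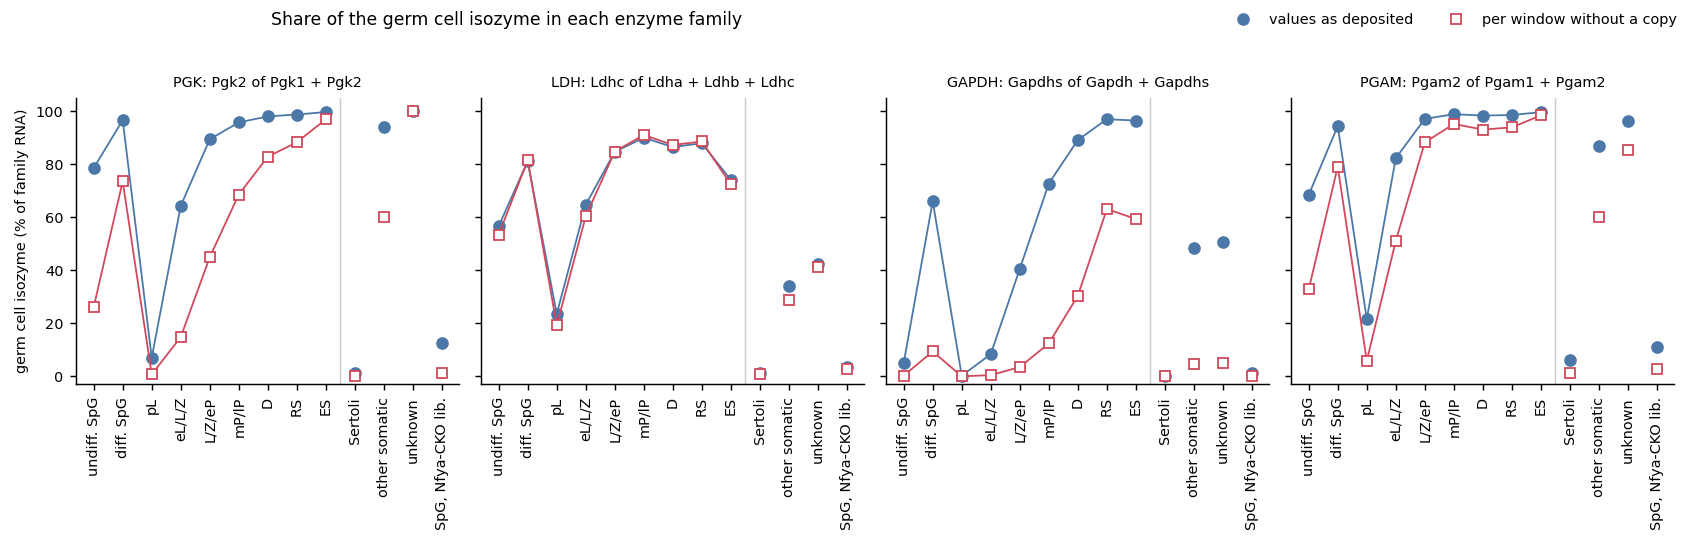
Germ cell isozyme as percent of the RNA of its enzyme family in the 13 populations, from values as deposited (filled circles) and per 71-base window without a copy (open squares). The GAPDH share in middle and late pachytene falls from 72.7% to 12.4% with the correction, the LDH share only moves from 90% to 91.0%.

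Pgk1 lies on the X chromosome, which is silenced in pachytene spermatocytes. In middle and late pachytene the median log2 change of 487 X-linked genes from undifferentiated spermatogonia was -0.99, and 240 of them (49.3%) were at least 2-fold lower, against -0.14 and 20.4% for 13593 autosomal genes. Pgk1, below the mean required for counting, had 0.0155 and 0.0158 in these populations, and 91.6% of its mRNA windows have a copy elsewhere. A second pair of an X-linked gene and its autosomal retrogene, Pdha1 and Pdha2, which encode the E1 alpha subunit of pyruvate dehydrogenase, could be read. Pdha1 was 0.555, 0.0298 and 0.0293 in undifferentiated spermatogonia, middle and late pachytene and round spermatids, and Pdha2 0.199, 1.57 and 0.934. Accessibility at Pdha1 was 18.0, 8.38 and 8.06 in these populations, and at Pdha2 22.1, 22.6 and 39.2.

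The Nfya-CKO spermatogonia, so called by their library label, had lower RNA values of the germ cell isozymes than the undifferentiated spermatogonia, nearly all of which came from the other libraries. Ldhc was 0.0492 against 0.579, Pgk2 0.00294 against 0.0566, Gapdhs 0.00782 against 0.0825 and Pgam2 0.00673 against 0.0721. On the value plus 0.1, Ldhc fell to 0.220 and Gapdh to 0.403 of the control level (2 members, where 3.08% of genes were lower), and Ldhb was 3.53-fold higher (1 member, where 4.09% were higher). The log2 changes of Pgk2, Gapdhs, Pgam2 and Hk1 were -0.61, -0.76, -0.69 and -0.66, within 2-fold. For Pgk2, Gapdhs and Pgam2 this rests on the 0.1 added, which exceeds their values: with 0.01 added they were -2.36, -2.38 and -2.30, and Hk1 was -0.79. The sum of the 4 spermatid markers moved with these values, at 0.103 against 0.511, all 4 above 0 in both. Among them Tnp1 hardly differed, at 0.0783 against 0.0915, and made up most of the 0.103. Of the 3 pachytene markers, Piwil1 (0.255 against 0.712) and Mybl1 (0.103 against 0.248) were lower and Ovol2 (0.223 against 0.202) was not, and their sum was 0.581 against 1.16. Ldhb, the enzyme of somatic cells, moved with the Sertoli and Leydig cell marker sums given above. Of the Sertoli sum 22.8 was Clu (2.50 in undifferentiated spermatogonia), while Sox9 was 0.820 against 0.531 and Wt1 0.700 against 0.600. All 4 Leydig cell markers were higher, Insl3 with 39.8 against 0.0640. The part of RNA from other cells, of age (the control spermatogonia include 102 cells from Cre/+ mice) and of the deletion cannot be told apart.

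In accessibility, 0 of the 10 members changed 2-fold between these populations, where 1.58% of genes were higher and 0.44% lower. At Pgk2, whose promoter holds 2 CCAAT sequences, the values were 7.32 in undifferentiated and 6.07 in the Nfya-CKO spermatogonia (470 nuclei), at Ldhc 12.1 and 11.4, at Pgk1 26.3 and 18.4, at Ldhb 27.1 and 28.2 and at Gapdhs 3.61 and 1.84. The log2 changes were between -0.70 for Gapdhs and 0.22 for Ldha. Those of Ldhc and Pgam2, -0.07 and -0.10, became 0.06 and 0.03 when mitochondrial genes were left out of the total.

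The rest of the pathway was read from lists of further genes. Of 24 further glycolysis genes 17 passed the filter, and from undifferentiated spermatogonia to round spermatids 7 were higher (22.4% of all genes) and 3 lower (26.7%), with a median log2 change of 0.88 against -0.27 for all genes. Among them Eno4, an enolase needed for the sperm tail, went from 0.260 to 1.75, the muscle enolase Eno3 from 0.326 over 3.15 in middle and late pachytene to 0.941, and Ldhal6b, an LDH-like retrogene, from 0.0857 over 1.86 to 1.08. Their log2 changes to round spermatids were 2.36, 1.29 and 2.66. The aldolase retrogenes Aldoart1 and Aldoart2, Bpgm and Pfkm were the other 4. Lower were Hk2 (0.625 to 0.195), Eno1 (0.645 to 0.102) and Aldoc (0.507 to 0.0350). Hk2 was 2.46 in Sertoli cells. Of the Eno1 windows 69.3% had a copy elsewhere.

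Of 9 transport genes 8 were counted, with 3 higher (22.4% of all genes), 2 lower (26.7%) and a median log2 change of 0.30 (-0.27 for all genes). The number lower is near the background. The neuronal and germ cell glucose transporter Slc2a3 went from 0.986 to 11.1 in middle and late pachytene and 3.65 in round spermatids, and the monocarboxylate transporter Slc16a7, which carries lactate and pyruvate, from 0.149 to 3.81, a 15.7-fold rise. Slc2a5, a fructose transporter, was also higher (4.47-fold). The ubiquitous glucose transporter Slc2a1 fell from 0.488 to 0.0415 and the monocarboxylate transporter Slc16a1 from 1.67 to 0.366, and Slc16a1 was 3.54 in Sertoli cells. Of 10 pyruvate dehydrogenase genes 9 were counted, with 2 higher (Pdha2 and Pdhb, the latter from 0.732 to 1.69), 3 lower (Pdha1, the phosphatase Pdp2 and the inhibitory kinase Pdk1, from 1.03 to 0.0689) and a median log2 change of 0.03. Both counts are near the shares of all genes, 22.4% and 26.7%, whose median was -0.27. In middle and late pachytene 3 were higher (13.9% of all genes) and 5 lower (20.8%), with a median of -1.63 (-0.14 for all genes), and the glycolysis list had 5 higher and 5 lower with a median of 0.32.

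The genes with the most similar RNA pattern were sought among 7018 genes that reached 1 per 10000, by Pearson's r of log2(value + 0.1) over the 13 populations. For Pgk2 they were Spata18 (0.997), 1700001O22Rik (0.996) and Spert (0.992), and for Gapdhs Spata18 (0.995), Akap3 (0.995), an anchoring protein of the sperm fibrous sheath, and 1700001O22Rik (0.994). For Ldhc they were Rsph1, a radial spoke protein of the axoneme (0.995), Lrrc46 (0.991) and Ropn1l (0.991). Pgk2 and Gapdhs correlated with each other at 0.991, and Pgam2 with Ldhc at 0.945 and with Pgk2 at 0.936. The points share libraries, so these values describe the 13 columns and no more.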

How the data were processed

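The study profiled testis nuclei by BD Rhapsody scRNA-seq and scATAC-seq. Per the study's methods and the submitters' processing notes, the authors aligned RNA reads to mm10 with STAR 2.7.10b, kept uniquely mapped reads, removed duplicates by UMI and position, and clustered cells with Seurat 5.2.1. BWA 0.7.12 and ArchR 1.0.3 served scATAC-seq. The authors removed doublets with DoubletFinder (scRNA-seq) and ArchR (scATAC-seq), and none were removed here. The deposited matrices hold 1 value per gene and population as the natural log of a scaled count plus 1. This was found from the values, since exp(value) - 1 sums to 10000 UMIs per population in RNA. scATAC-seq values were rescaled to sum to 1e+06 over the genes of a population. The methods define promoter accessibility of pseudo-bulks as coverage around the start site, but do not tie this to the deposited matrix, so the region counted per gene is not given in the sources used here. Among 343866 scATAC-seq nuclei, 31569 (9.18%) belonged to a population. The deposited tables of cells give counts of UMIs per cell, used for depth. In them 49 cells had no library name, and 23 per-cell columns of no known sample were not used.

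Folds are ratios of value + 0.1 (RNA) or value + 1 (scATAC-seq), called at 2-fold, for RNA over genes with a mean of at least 0.05. No test was possible. The named genes were all members, of the pathway lists up to 6 genes past 2-fold in round spermatids in each direction with the highest level, always Pdha1 and Pdha2, and 3 similar genes for each of Pgk2, Ldhc and Gapdhs. Slc2a5, Pdp2, Aldoart1, Aldoart2, Bpgm and Pfkm were named beyond that rule to complete counts after their values were seen. Members and lists were chosen with earlier results of these data known. Promoters, coding lengths and the search for exact copies of 71-base windows used RefSeq and GRCm38, the build of the files. The fold script was tested on simulated data. Python 3.11.15, pandas 2.3.3 and numba 0.67.0 were used. Alternatives were other pseudocounts, thresholds, filters, reference populations and scalings.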

Additional observations from a re-analysis of the deposited data

How the results depend on the processing

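With 1 pooled value per population, replicate error is unknown, no library could be left out, and the cells with barcodes in both 8-week-old libraries could not be removed. No paired analysis was possible because each condition had 1 library. An alternative that merged pseudogene entries with their parent genes was not run, as 0 such entries of the members are in the matrix. Of 260 RNA log2 changes under alternatives, 162 stayed within 1.5-fold of the value reported, 96 moved further and 2 past 2-fold reversed. A further 8 below 2-fold changed sign, with Hk1 in middle and late pachytene (-0.24 as reported, 0.90 from preleptotene), Ldhb in round spermatids and 6 values of Pgk1. The 2 reversals arose with differentiating spermatogonia as reference in middle and late pachytene, Pgk2 at -0.98 (1.55 as reported) and Gapdhs at -1.33 (1.51). Of 150 scATAC-seq changes 135 stayed, 15 moved and 0 past 2-fold reversed, and 6 below 2-fold changed sign. Counts of members changed with the threshold. In middle and late pachytene 3 were at least 4-fold higher (5 at 2-fold) and 2 at least 1.5-fold lower (1). In the Nfya-CKO spermatogonia 0 were 4-fold higher (1), 6 were 1.5-fold lower and 1 was 4-fold lower (2). The shares of all genes at 1.5-fold and 4-fold were not computed. These counts therefore show only the effect of the threshold and cannot be set against a background. Scaling chosen after seeing the data, without mitochondrial genes, gave 4 more accessible members (2) and 1 less accessible (2) in middle and late pachytene, and 2 less accessible (1) in round spermatids than in Sertoli cells. The correction by windows without a copy, also chosen after seeing the data, moved the germ cell share of PGK to 26.1% in undifferentiated spermatogonia and 0.127% in Sertoli cells, of GAPDH to 0.283%, 12.4%, 63.1%, 59.3% and 0.00274% in undifferentiated spermatogonia, middle and late pachytene, round spermatids, elongating spermatids and Sertoli cells, and of PGAM to 32.8% and 1.42% in undifferentiated spermatogonia and Sertoli cells. Fewer usable windows in Gapdh, Pgk1 and Pgam1 set these shifts by construction. Of the 40 shares recomputed for these 5 populations, by coding length or by windows, the other 31 stayed within 1.5-fold, as did 10 of 10 chromosome medians. Of 90 pathway counts 28 moved.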
